A study of Homo sapiens with 12 samples.

Results

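The BCL2 family sets whether the outer membrane of mitochondria is breached during apoptosis. Its antiapoptotic members hold the effector proteins in check, its BH3-only members relieve that check or activate the effectors directly, and the effectors BAX and BAK1 form the pores through which cytochrome c leaves to start the caspase cascade. Proximal tubule cells of the kidney can die by this route after toxic or ischaemic injury. The 10 genes described here were chosen by name, without use of a measured value. BCL2, BCL2L1 and MCL1 stand for the antiapoptotic proteins, BCL2L11, BBC3, PMAIP1, BID and BIK for the BH3-only proteins, and BAX and BAK1 for the effectors. Of these 10 genes, 9 had probe sets annotated to them alone, 30 in all, out of 19775 genes with such probe sets on the array. The 9 genes were all among the 11154 that were tested. BBC3, which encodes the BH3-only protein PUMA, is read by a probe set that is also annotated to microRNA genes, so no value is given for it.

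Gene expression was measured on 12 Affymetrix arrays of HK-2 cells, a line of human proximal tubule epithelial cells immortalized with genes of a human papillomavirus. CsA, taken to stand for cyclosporin A, a calcineurin inhibitor with known kidney toxicity, had been given to the cells for 12 h or 48 h, and its vehicle to control cells for the same times, with 3 arrays, called biological replicates, in each of the 4 groups. All groups shared a medium of DMEM and Ham's F12 with EGF, hydrocortisone, insulin, transferrin and selenite, and all came from 1 cell line at 1 laboratory, given as lab 4. Neither the CsA dose nor the vehicle is named in the labels, and nothing says how the biological replicates were grown apart, so the p-values measure the spread between these arrays. Values are log2 probe set summaries, so a difference of 1 is a doubling of the measured level. The number of arrays limits their precision, and every difference compares 3 arrays with 3 except where the omission of one is stated.

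Of 16 proximal tubule genes on the array, 6 lay above a log2 value of 4 on at least 3 arrays, the level taken here as the floor of detection. The defining transporters and receptors LRP2, CUBN, AQP1, SLC34A1, SLC5A2, SLC22A6 and SLC22A8 were under it on all 12 arrays. Of 7 epithelial genes, 6 passed, CDH1 being the exception, while 0 of 5 endothelial and 0 of 5 leukocyte genes did. Of the fibroblast and mesangial genes 5 of 7 passed, of the podocyte genes 2 of 4, and of the loop, distal tubule and collecting duct genes 3 of 5. At 48 h, array means of the fibroblast list lay between 5.32 and 5.70 in CsA and between 5.76 and 6.10 in control. Other lists were apart too. The proximal tubule list had 5.25 to 5.28 in CsA, against 5.41 to 5.59 in control. The epithelial list had 11.69 to 12.05, against 11.46 to 11.61, and the loop and distal list 3.82 to 3.84, against 3.96 to 4.16. The podocyte, endothelial and leukocyte lists overlapped. The part of these cell type genes in the results was not tested.

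Replicate 3 of CsA at 48 h stood apart from all other arrays. Its hybridization controls had a median log2 value of 7.38, where the other arrays had 9.89 to 11.42, and it was the farthest of its group for 57.5% of genes and for 15 of the 25 member probe sets that passed the filter. Replicate 1 of both 48 h groups had low signals of the poly-A controls added to the RNA. These were 5.04 on the CsA array and 4.32 on the control array, and between 8.38 and 10.18 on the rest. The difference between 3' and 5' probe sets of ACTB, a sign of RNA quality, was 1.22 on replicate 3 of CsA at 48 h and 1.33 on replicate 1 of control at 48 h, and between 0.73 and 0.98 on the other 10 arrays. Within groups, the median SD over genes was 0.20 for CsA and 0.15 for control at 48 h, and 0.11 for CsA and 0.10 for control at 12 h. Results at 48 h are given with all arrays, and for some genes and counts also without replicate 3 of CsA. Some are also given in a model of the 48 h arrays alone, where the tighter 12 h arrays do not enter the estimate of the spread.

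At 12 h, no member passed the test between CsA and control, and at 48 h none passed on the probe set that stands for its gene. Of the 25 single probe sets, 3 passed at 48 h, close to the 12.7% of all probe sets that did. Of these, 2 of BCL2L1 (encoding BCL-xL) were higher with CsA and 1 of BCL2L11 (encoding BIM) was lower. In the 48 h arrays alone 0 of the 25 passed. The larger movements were those between the vehicle controls of the 2 times. In them BCL2, MCL1, BCL2L11, PMAIP1, BIK and BAX were higher at 48 h, BID and BAK1 were lower, and BCL2L1 did not pass the test. The counts and backgrounds behind these statements follow.

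**Figure D1:**
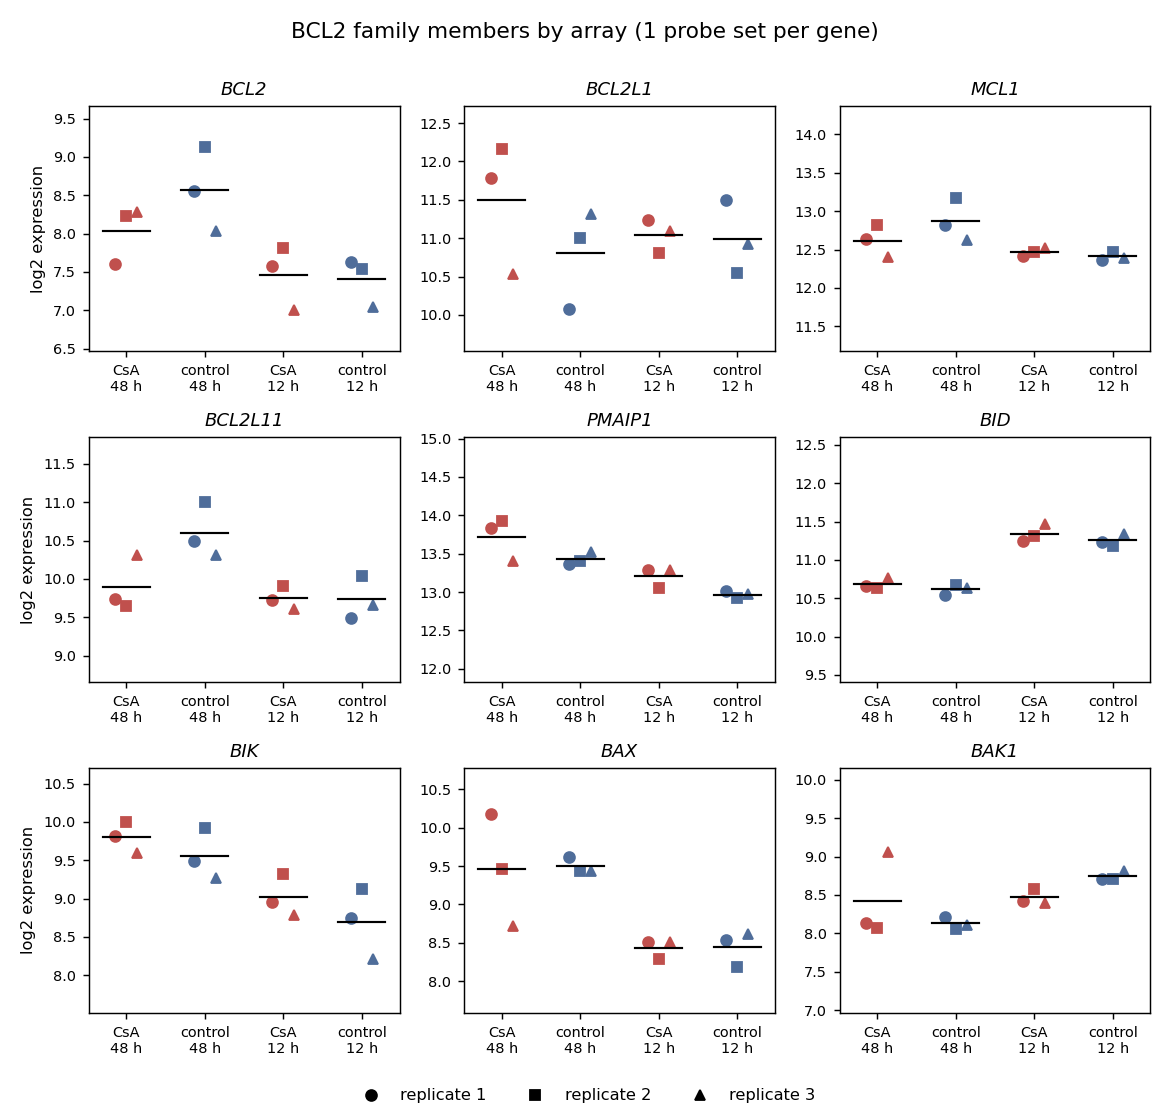
Log2 expression (vertical axis, the same span in each panel) of the 9 measured members on all 12 arrays, CsA in red and control in blue, with symbols for replicate numbers and a line at each group mean. The 48 h and 12 h controls do not overlap in 8 of the 9 panels, BCL2L1 being the exception, where 60.2% of all genes are apart in this way. CsA replicate 3 at 48 h (triangle) lies apart from its group in BCL2L1, BCL2L11, PMAIP1 and BAK1.

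After 12 h, the members differed little between CsA-treated and control cells. None of the 9 genes passed an adjusted p of 0.05 (limma with Benjamini-Hochberg adjustment over all genes tested), where 0.00897% of all genes, a single gene, did so, and none had an unadjusted p under 0.05, against 2.85% of all genes. Among the 25 probe sets 0 passed, against 0.00485% of all probe sets. The median log2 change over the 9 genes was 0.05, against -0.00675 over all genes, and 7 of the 9 changes were positive.

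PMAIP1 had the smallest p of the members at 12 h. It encodes NOXA, a BH3-only protein that binds MCL1 and promotes its loss. Its log2 values were 13.28, 13.06 and 13.29 with CsA, against 13.01, 12.92 and 12.97 in the control. The 3 CsA arrays all lay above the 3 control arrays. The log2 change was 0.24 (SE 0.13, limma, adjusted p = 1.00), and a second PMAIP1 probe set, 204286_s_at, gave 12.81, 12.39 and 12.49 with CsA, against 12.54, 12.22 and 12.28 in the control, where the groups overlapped. BAK1, a pore-forming effector, lay the other way, with 8.43, 8.58 and 8.40 with CsA, against 8.71, 8.71 and 8.81 in the control. All of its CsA arrays were below all control arrays (log2 change -0.28, SE 0.21, limma, adjusted p = 1.00). CsA and control arrays thus did not overlap at 12 h for 2 of the 9 members and 2 of the 25 probe sets, against 13.0% of all genes and 12.0% of all probe sets.

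The remaining BH3-only and effector genes overlapped between the groups at 12 h. BIK, a BH3-only protein of the endoplasmic reticulum in many cells, measured 8.95, 9.32 and 8.78 with CsA, against 8.75, 9.12 and 8.22 in the control. Each CsA array was above the control array with the same replicate number, but the ranges crossed, and the log2 change was 0.32 (SE 0.24). BCL2L11 had a change of 0.01 (SE 0.22), BID one of 0.08 (SE 0.08) and BAX one of -0.01 (SE 0.29). The antiapoptotic genes BCL2, BCL2L1 and MCL1 had log2 changes of 0.05, 0.05 and 0.06, with SEs of 0.31, 0.43 and 0.14. Each of the changes of these last 6 genes was smaller than its SE.

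After 48 h, many genes passed between CsA and control in the model of all arrays, and no member did on the probe set that stands for it. With only 9 members, a count of 0 does not set them apart from all genes. Of all genes, 16.1% passed an adjusted p of 0.05, 692 of them higher and 1103 lower with CsA, and 0 of the 9 members did. In the 48 h arrays alone 1.10% of all genes and 0 members passed. BCL2L11 and PMAIP1, 2 of the 9, had unadjusted p-values under 0.05 in the model of all arrays, a smaller share than the 31.7% of all genes. Of the 25 probe sets, 3 passed, where 12.7% of all probe sets did, so the members' share was close to the background. In the 48 h arrays alone 0 of 25 passed, against 0.0388% of all probe sets, although 4 had an unadjusted p under 0.05, against 19.5% of all probe sets. CsA and control arrays did not overlap for 1 of the 9 genes and 6 of the 25 probe sets, against 29.7% of all genes and 27.5% of all probe sets. The median change over the 9 genes was 0.07, against -0.00497 over all genes, and 5 were positive.

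**Figure D2:**
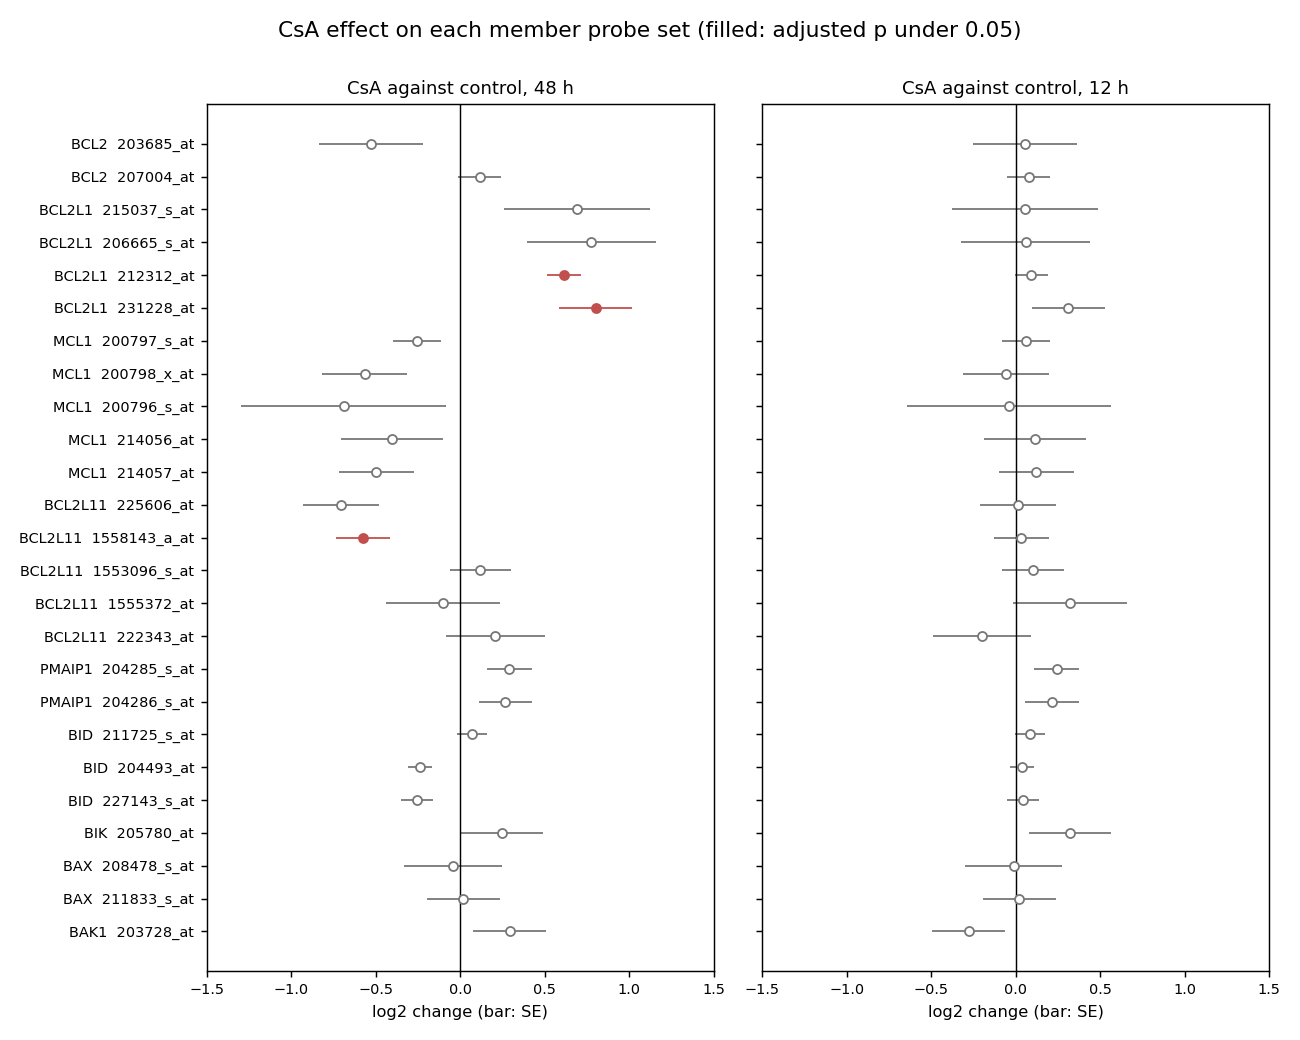
Log2 change with CsA against control (horizontal axis) for the 25 member probe sets that passed the filter, at 48 h on the left and 12 h on the right. Points are estimates of the model of all arrays, bars are SEs and filled points have an adjusted p under 0.05; the 3 filled points are 212312_at and 231228_at of BCL2L1, above 0, and 1558143_a_at of BCL2L11, below 0, all at 48 h.

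BCL2L1 was the antiapoptotic gene with higher values after 48 h of CsA. Its protein BCL-xL sequesters BH3-only proteins and the effectors at the mitochondrial membrane. Probe set 212312_at measured 10.51, 10.67 and 10.63 with CsA, against 9.91, 9.94 and 10.13 in the control. The 3 CsA arrays lay close together and all above the controls. This probe set rose 1.53-fold (log2 change 0.61, SE 0.10, limma, adjusted p = 0.00500 over all probe sets), and stayed past the threshold when each of the 12 arrays was left out in turn, with changes of 0.57 to 0.68. It did not pass in the 48 h arrays alone (limma, adjusted p = 0.0858).

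The probe set that stands for BCL2L1, 215037_s_at, showed wider groups. It read 11.79, 12.17 and 10.53 with CsA, against 10.08, 11.00 and 11.32 in the control. Replicates 1 and 2 of CsA were above every control, but replicate 3 was lower than 2 of the 3 controls, and control replicate 1 was the lowest of all. These 2 arrays are the ones with the high ACTB differences given above, whose part in the result was not tested. The log2 change was 0.69 (SE 0.43, limma, adjusted p = 0.296), and without replicate 3 of CsA it was 1.18 (limma, adjusted p = 0.0496). Without control replicate 1 it was 0.33 (limma, adjusted p = 0.656), without replicate 2 of CsA 0.36 (limma, adjusted p = 0.602), and without replicate 1 of both groups 0.19 (limma, adjusted p = 0.844), so single arrays decided its size. Probe set 206665_s_at read 11.35, 11.68 and 10.36 with CsA, against 9.59, 10.62 and 10.85 in the control, with the same 2 arrays the lowest at 48 h. The dim probe set 231228_at read 4.57, 4.49 and 5.28 with CsA, against 3.95, 4.11 and 3.88 in the control, so 2 of its control arrays were under the floor of 4. Its rise of 0.80 (SE 0.22, limma, adjusted p = 0.0373) did not pass in 9 of 12 fits with 1 array omitted. All 4 probe sets of BCL2L1 thus had positive changes, and the labels do not say which transcripts each one reads. The mean over the gene's 4 probe sets gave 0.72 (limma, adjusted p = 0.0359).

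MCL1 and BCL2, the other antiapoptotic genes, had negative changes that did not pass. MCL1 encodes a short-lived protein that guards BAK1. On 200797_s_at it measured 12.63, 12.82 and 12.40 with CsA, against 12.82, 13.18 and 12.62 in the control, and the groups overlapped (log2 change -0.26, SE 0.14, limma, adjusted p = 0.233). All 5 MCL1 probe sets had negative changes, from -0.26 to -0.69, and none passed. On 200796_s_at, the most negative, replicate 3 of CsA lay far below the rest, with 8.70, 8.86 and 6.42 with CsA, against 7.79, 9.38 and 8.89 in the control. Control replicate 1 was the next lowest, so the 2 arrays with high ACTB differences were again the lowest. Without replicate 3 of CsA this probe set gave a change of 0.09, so its sign rested on that array. Leaving that array out also brought 200797_s_at to -0.15, 200798_x_at from -0.57 to -0.22 and 214057_at from -0.50 to -0.42. Probe set 214056_at went the other way, from -0.40 to -0.57. BCL2 itself, on 203685_at, read 7.61, 8.23 and 8.28 with CsA, against 8.55, 9.13 and 8.03 in the control. Its change was -0.53 (SE 0.31, limma, adjusted p = 0.261), while its other detected probe set, 207004_at, changed by 0.11 (SE 0.13).

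**Figure D3:**
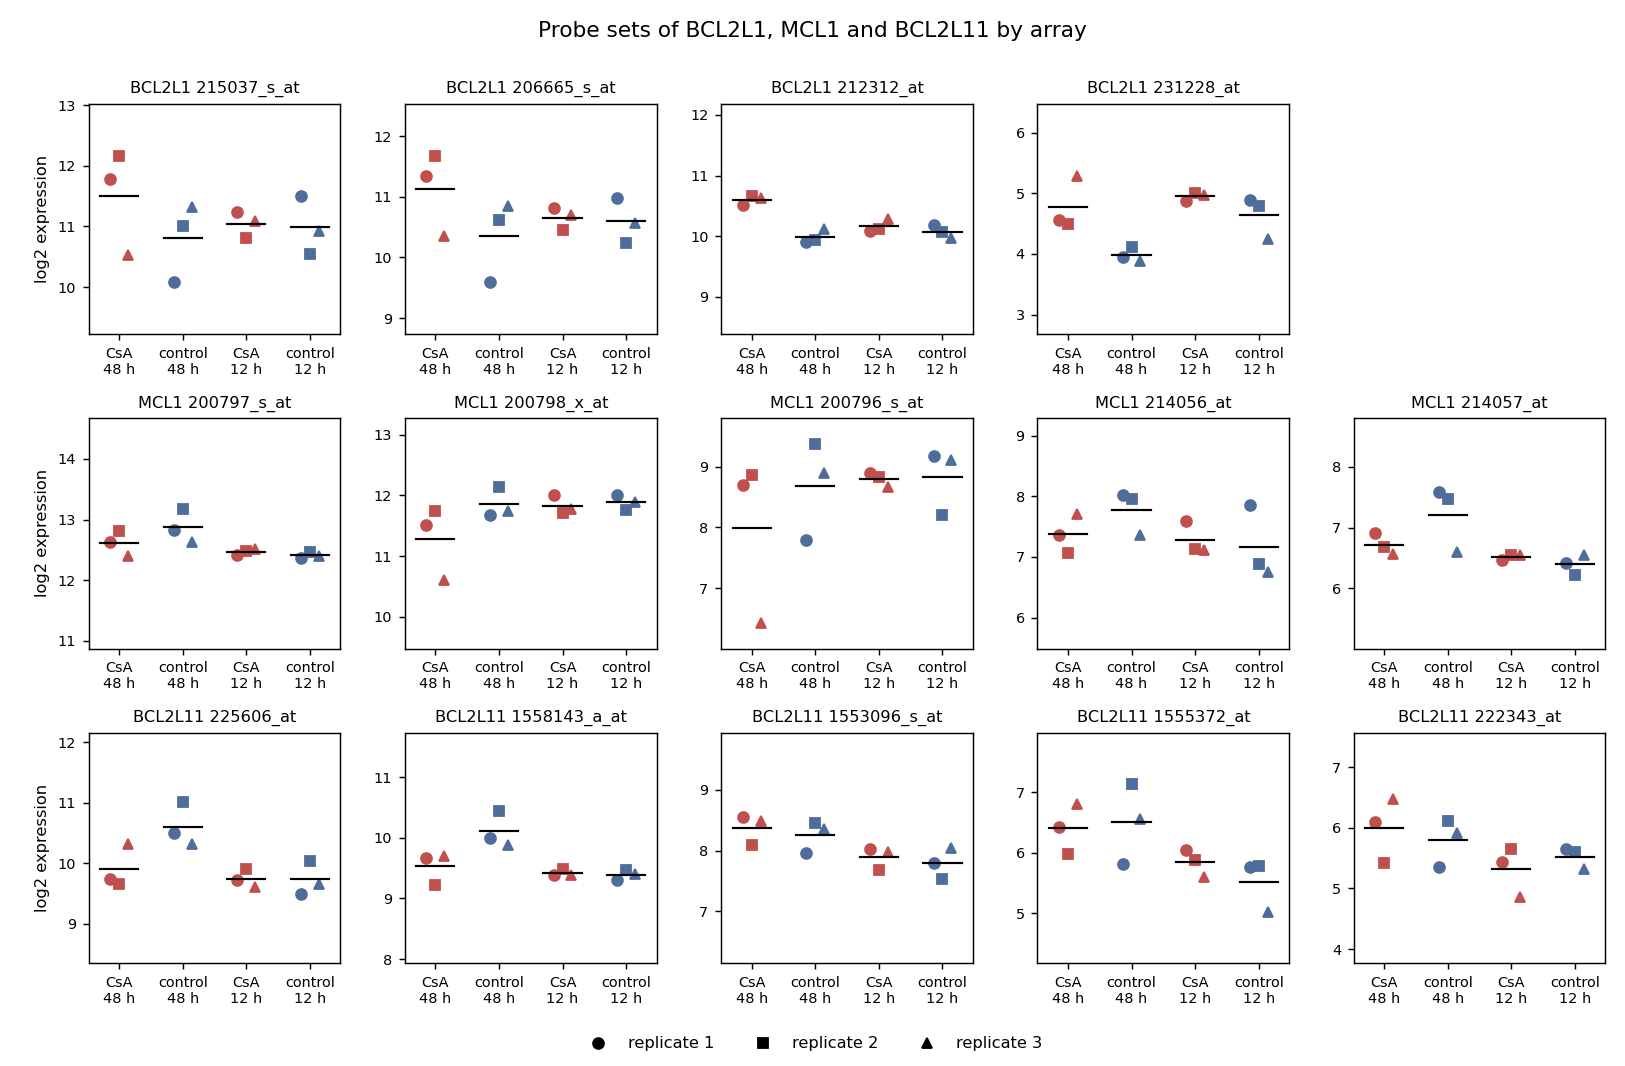
Log2 expression (vertical axis, the same span in each panel) on the 12 arrays for the detected probe sets of BCL2L1 (top), MCL1 (middle) and BCL2L11 (bottom), with CsA in red, control in blue, symbols for replicates and a line at each mean. The 3 CsA arrays at 48 h lie together above the controls for BCL2L1 on 212312_at, whereas replicate 3 (triangle) drops away on 215037_s_at and 206665_s_at and on 200796_s_at and 200798_x_at of MCL1.

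Among the BH3-only genes, BCL2L11 had lower values after 48 h of CsA on its brightest probe sets. Its protein BIM binds all antiapoptotic members and can activate BAX and BAK1. On 225606_at the values were 9.73, 9.65 and 10.31 with CsA, against 10.50, 11.01 and 10.31 in the control. The CsA arrays were all below the controls, replicate 3 of CsA only just. The log2 change of -0.71 (SE 0.22, limma, adjusted p = 0.0532) narrowly missed the threshold. Without replicate 3 of CsA it was -0.91 (limma, adjusted p = 0.0174), and without control replicate 3 it was -0.85 (limma, adjusted p = 0.0390). Leaving out control replicate 1 or 2 gave -0.76 and -0.50 (limma, adjusted p = 0.0917 and 0.187). Leaving out replicate 1 or 2 of CsA gave -0.62 and -0.58 (limma, adjusted p = 0.143 and 0.122). Fitting only the 48 h arrays gave an adjusted p of 0.175 (limma). On 1558143_a_at the values were 9.67, 9.22 and 9.70 with CsA, against 9.99, 10.45 and 9.88 in the control, again without overlap. This probe set fell by 0.58 on the log2 scale (SE 0.16, limma, adjusted p = 0.0431), but missed the threshold in 10 of 12 fits with 1 array omitted. The other 3 detected probe sets of BCL2L11 did not share this, with changes of 0.12 (SE 0.18), -0.10 (SE 0.34) and 0.21 (SE 0.29) on 1553096_s_at, 1555372_at and 222343_at. BCL2L11 is spliced into several BIM isoforms, and which of them each probe set reads was not analysed here. The mean over the gene's 5 detected probe sets gave -0.21 (limma, adjusted p = 0.494).

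PMAIP1 values at 48 h were 13.83, 13.93 and 13.40 with CsA, against 13.36, 13.41 and 13.52 in the control. Replicates 1 and 2 of CsA were above every control and replicate 3 was not. The change was 0.29 (SE 0.13, limma, adjusted p = 0.156), and without replicate 3 of CsA it was 0.45 (limma, adjusted p = 0.0106). Without replicate 2 of CsA it was 0.18 (limma, adjusted p = 0.355). Probe set 204286_s_at gave 0.27 (SE 0.16) with all arrays. Without replicate 3 of CsA it gave 0.41 and did not pass (limma, adjusted p = 0.0930). BIK read 9.82, 10.00 and 9.60 with CsA, against 9.49, 9.91 and 9.27 in the control, with a change of 0.24 (SE 0.24) and overlapping groups.

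BID links death receptors to mitochondria once caspase-8 has cut it. Its 3 probe sets disagreed at 48 h. On 211725_s_at they read 10.65, 10.64 and 10.77 with CsA, against 10.55, 10.67 and 10.63 in the control, a change of 0.07 (SE 0.08). On 204493_at they read 9.65, 9.68 and 9.67 with CsA, against 9.90, 9.97 and 9.84 in the control. There all CsA arrays lay below all controls, with a change of -0.24 (SE 0.07, limma, adjusted p = 0.0563). The third, 227143_s_at, also had separate groups and a change of -0.25 (SE 0.09, limma, adjusted p = 0.106).

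The effectors did not pass at 48 h. BAX read 10.18, 9.46 and 8.72 with CsA, against 9.62, 9.43 and 9.44 in the control. The CsA arrays spread on both sides of the controls, with an SD of 0.73 against 0.11, and the change was -0.04 (SE 0.29) with all arrays and 0.32 (limma, adjusted p = 0.294) without replicate 3. BAK1 read 8.13, 8.07 and 9.06 with CsA, against 8.21, 8.06 and 8.11 in the control. Only replicate 3 of CsA stood above the controls, and the change of 0.29 (SE 0.21) became -0.03 without it. Leaving out that array brought BCL2L1, BCL2L11 and PMAIP1 past the threshold, 3 of the 9 members, where 18.6% of all genes passed without it.

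The effect of CsA at 48 h was set against that at 12 h in the same model. None of the 9 members passed this test, against 1.12% of all genes. BCL2L11 had the only unadjusted p under 0.05, where 17.4% of all genes had one, with a difference of -0.72 (SE 0.31, limma, adjusted p = 0.270). Among the probe sets, 212312_at of BCL2L1 had a difference of 0.52 (SE 0.14, limma, adjusted p = 0.124). The changes at 48 h are therefore not shown to differ from those at 12 h.

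Most members changed between the vehicle controls of the 2 times. Of the 9 members, 8 passed between control at 48 h and control at 12 h, where 45.5% of all genes did. Higher at 48 h were 6 members, against 24.6% of all genes, and lower were 2, against 20.9%. In the control arrays alone the count was again 8 of 9, against 47.5% of all genes. Of the 25 probe sets 16 passed, 11 higher and 5 lower, against 38.5% of all probe sets, and 14 did in the control arrays alone, against 39.3%. The arrays of the 2 times did not overlap for 8 of the 9 members and 16 of the 25 probe sets, against 60.2% of all genes and 55.2% of all probe sets. The median change over the 9 genes was 0.47, against 0.03 over all genes. Anything else that differed between the cultures harvested at 48 h and at 12 h cannot be told apart from time.

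Of the antiapoptotic genes, BCL2 and MCL1 rose. BCL2 on 203685_at read 8.55, 9.13 and 8.03 in the 48 h controls, against 7.63, 7.55 and 7.05 in the 12 h controls, all later arrays above all earlier ones. The rise was 2.24-fold (log2 change 1.16, SE 0.31, limma, adjusted p = 0.0101). Probe set 207004_at of the same gene had a change of 0.08 (SE 0.13), and the other 2 BCL2 probe sets were under the floor on all 12 arrays. MCL1 read 12.82, 13.18 and 12.62 in the 48 h controls, against 12.37, 12.47 and 12.40 in the 12 h controls (log2 change 0.47, SE 0.14, limma, adjusted p = 0.0195). Its probe set 214057_at rose as well, by 0.82 (SE 0.22, limma, adjusted p = 0.0145), while 200798_x_at and 200796_s_at changed by -0.03 and -0.15. BCL2L1 changed by -0.19 (SE 0.43, limma, adjusted p = 0.755) and its steadier probe set 212312_at by -0.08 (SE 0.10). Its dim probe set 231228_at fell by 0.66 (SE 0.22, limma, adjusted p = 0.0331), with 3.95, 4.11 and 3.88 in the 48 h controls, against 4.90, 4.78 and 4.24 in the 12 h controls.

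Of the BH3-only genes, BCL2L11, PMAIP1 and BIK rose, and BID fell. BCL2L11 on 225606_at read 10.50, 11.01 and 10.31 in the 48 h controls, against 9.50, 10.04 and 9.66 in the 12 h controls, a rise of 1.83-fold (log2 change 0.87, SE 0.22, limma, adjusted p = 0.00837). Its probe sets 1558143_a_at and 1555372_at rose as well, by 0.72 (SE 0.16, limma, adjusted p = 0.00551) and 0.98 (SE 0.34, limma, adjusted p = 0.0411). The changes of 1553096_s_at and 222343_at, 0.47 and 0.27, did not pass. PMAIP1 read 13.36, 13.41 and 13.52 in the 48 h controls, against 13.01, 12.92 and 12.97 in the 12 h controls, with narrow groups and a change of 0.46 (SE 0.13, limma, adjusted p = 0.0145). BIK read 9.49, 9.91 and 9.27 in the 48 h controls, against 8.75, 9.12 and 8.22 in the 12 h controls. Its groups were apart, and it rose by 0.86 (SE 0.24, limma, adjusted p = 0.0133). BID had the smallest SE of the members in the model of all arrays, reading 10.55, 10.67 and 10.63 in the 48 h controls, against 11.24, 11.18 and 11.34 in the 12 h controls. It fell by 0.64 on the log2 scale (SE 0.08, limma, adjusted p = 0.000172), and its probe sets 204493_at and 227143_s_at fell by 0.50 and 0.45.

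The effectors moved in opposite directions between the controls. BAX read 9.62, 9.43 and 9.44 in the 48 h controls, against 8.53, 8.18 and 8.62 in the 12 h controls. It rose 2.07-fold (log2 change 1.05, SE 0.29, limma, adjusted p = 0.0119), and its probe set 211833_s_at gave 1.02 (SE 0.22). BAK1 read 8.21, 8.06 and 8.11 in the 48 h controls, against 8.71, 8.71 and 8.81 in the 12 h controls. It fell by 0.62 (SE 0.21, limma, adjusted p = 0.0352), although it lost this call when any 1 of the 6 control arrays was left out, with adjusted p-values up to 0.0937. BCL2, BCL2L11, BID and BAX passed in all 12 fits that left out an array, whereas MCL1 lost the threshold in 3 of them, BIK in 2 and PMAIP1 in 1.

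**Figure D4:**
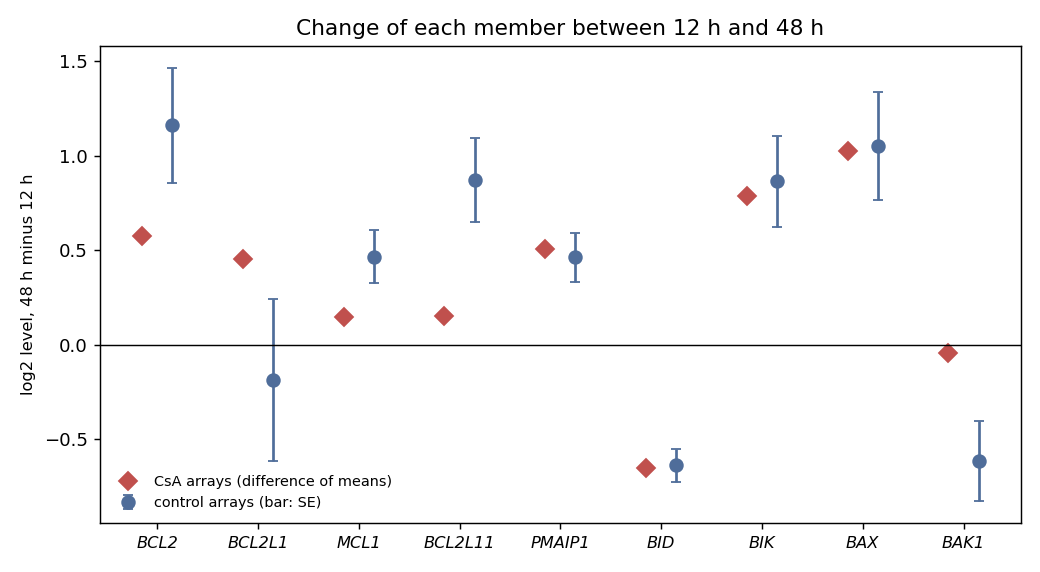
Difference in log2 level between 48 h and 12 h (vertical axis) for the 9 measured members, as diamonds for CsA arrays (difference of group means) and circles for control arrays (model estimate with SE as bar). BID lies near -0.64 and BAX near 1.05 in both kinds of array, while BCL2L11 lies at 0.15 with CsA and at 0.87 in the control.

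The same time difference in CsA-treated cells is given beside it as a description. Between 12 h and 48 h, BAX differed by 1.02 in CsA arrays and by 1.05 in control arrays, BID by -0.65 and by -0.64, BIK by 0.78 and by 0.86, and PMAIP1 by 0.51 and by 0.46. BCL2 differed by 0.58 in CsA arrays, against 1.16 in control arrays, and MCL1 by 0.15, against 0.47. BCL2L11 differed by 0.15 in CsA arrays, against 0.87 in control arrays. BAK1 differed by -0.05 in CsA arrays, against -0.62 in control arrays, with replicate 3 of CsA at 48 h the one high array. The gap between these paired values is the difference of CsA effects tested above, in which no member passed.

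Of the 6 members that rose between the controls, BCL2, BCL2L11, PMAIP1 and BAX were matched in the RefSeq table of promoter windows and their windows are shown, while MCL1 and BIK were not matched. Each runs from 250 bases before to 50 bases after an annotated transcription start in GRCh38.p14, 5′ to 3′ on the gene's strand. For BCL2L11, PMAIP1 and BAX this is the outer start of the gene. The BCL2 gene reaches to position 63320090 on its minus strand, so the BCL2 window lies inside the annotated gene, at a start downstream of the outer one. Capitals mark matches, on either strand, to 4 short motifs: GTAAACA, the core that FOXO factors bind; TGACGT, the core of the cAMP response element that ATF and CREB factors bind; CACGTG, an E-box bound by MYC and related factors; and GGGCGG, the GC box of SP factors. No 2 of these motifs overlap in the windows printed.
BCL2 (chr18:63319720-63320019, minus strand): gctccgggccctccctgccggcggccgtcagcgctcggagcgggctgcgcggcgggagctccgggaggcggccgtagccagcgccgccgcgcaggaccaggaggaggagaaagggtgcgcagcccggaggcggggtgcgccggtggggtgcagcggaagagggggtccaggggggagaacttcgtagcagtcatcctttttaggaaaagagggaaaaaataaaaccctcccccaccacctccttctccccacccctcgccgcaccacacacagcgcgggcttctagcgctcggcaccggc
BCL2L11 (chr2:111120664-111120963, plus strand): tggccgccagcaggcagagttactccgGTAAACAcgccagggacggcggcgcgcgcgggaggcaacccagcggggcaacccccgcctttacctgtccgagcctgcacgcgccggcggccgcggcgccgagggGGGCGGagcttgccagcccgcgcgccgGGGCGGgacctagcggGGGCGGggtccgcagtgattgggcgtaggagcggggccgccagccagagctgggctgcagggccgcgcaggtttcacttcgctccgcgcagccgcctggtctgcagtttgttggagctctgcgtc
PMAIP1 (chr18:59899746-59900045, plus strand): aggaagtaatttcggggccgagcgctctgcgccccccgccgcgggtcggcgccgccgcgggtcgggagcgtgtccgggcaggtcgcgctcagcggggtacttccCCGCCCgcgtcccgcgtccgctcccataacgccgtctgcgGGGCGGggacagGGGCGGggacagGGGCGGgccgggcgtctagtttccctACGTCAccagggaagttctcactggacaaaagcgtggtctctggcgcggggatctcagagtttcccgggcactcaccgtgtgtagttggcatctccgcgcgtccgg
BAX (chr19:48954625-48954924, plus strand): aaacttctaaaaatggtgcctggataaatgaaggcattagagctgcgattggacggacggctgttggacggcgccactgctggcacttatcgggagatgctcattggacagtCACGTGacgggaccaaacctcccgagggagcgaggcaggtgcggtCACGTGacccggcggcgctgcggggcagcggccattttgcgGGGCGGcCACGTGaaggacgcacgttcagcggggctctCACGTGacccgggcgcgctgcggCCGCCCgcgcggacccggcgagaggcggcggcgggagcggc

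These windows shared no motif across all 4 genes. BCL2L11 holds GTAAACA, which 3.42% of the 35116 promoter windows in the table hold, starting 223 bases before the start site. PMAIP1 holds TGACGT on the minus strand, read as ACGTCA, 56 bases before the start site, a match found in 7.98% of windows. BAX holds CACGTG 4 times, at 138, 93, 45 and 14 bases before the start site, where 7.26% of windows hold it at all and 5 windows, this one included, hold it 4 times or more. The GC box occurs in the windows of BCL2L11, PMAIP1 and BAX and in 45% of all windows. The BCL2 window holds none of the 4 motifs, but it lies inside the annotated gene, and the region before the outer start of BCL2 was not read. A match describes letters in this window and no binding was measured.

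The genes around the family were read from lists written with earlier results of these data known. At 12 h none of their members passed, and the 6 genes with the smallest p are named here after their values were seen. TRIB3, a stress-induced pseudokinase, differed by 0.52 on the log2 scale (SE 0.12, limma, adjusted p = 0.778), and ATF4, a transcription factor of the integrated stress response that acts on PMAIP1, by 0.38 (SE 0.10). DDIT3, the stress factor CHOP, differed by 0.70 (SE 0.26). TNFRSF10B, a death receptor for TRAIL, had a change of 0.28 (SE 0.13), and BNIP3L, a mitophagy receptor related to the family, one of 0.22 (SE 0.10). ENDOG, a mitochondrial nuclease, lay the other way, with a change of -0.31 (SE 0.14).

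At 48 h, 2 of 11 other BCL2 family genes passed, 1 in each direction, beside the background of 16.1% of all genes. HRK, which encodes the BH3-only protein Harakiri, read 8.96, 8.43 and 9.33 with CsA, against 7.99, 7.85 and 7.20 in the control. All CsA arrays were above all controls, and HRK rose by 1.23 on the log2 scale (SE 0.26, limma, adjusted p = 0.0129). Its other probe sets, 237187_at and 229552_at, had changes of 0.69 (SE 0.37) and 0.65 (SE 0.31) that did not pass over all probe sets. BMF, another BH3-only gene, read 6.53, 5.97 and 6.65 with CsA, against 7.21, 7.14 and 7.00 in the control, and fell by 0.74 on the log2 scale (SE 0.22, limma, adjusted p = 0.0427). HRK kept its call when any 1 array was left out, whereas BMF lost it in 9 of 12 such fits.

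Downstream of the mitochondria, 3 of 10 caspase and apoptosome genes passed at 48 h, all lower with CsA, where 9.89% of all genes were called lower, and the list's median change was -0.23. APAF1, the scaffold that cytochrome c assembles into the apoptosome, read 8.22, 8.53 and 8.89 with CsA, against 9.83, 9.83 and 9.21 in the control. The groups did not overlap, and APAF1 fell by 1.08 on the log2 scale (SE 0.19, limma, adjusted p = 0.00561), also when any 1 array was left out. Its dim probe set 211554_s_at had a change of -0.43 (SE 0.32). CASP2 fell by 0.39 (SE 0.10) and CASP6, an executioner caspase, by 0.61 (SE 0.18), but without 1 array CASP6 missed the threshold in 10 of 12 fits and CASP2 in 3. The other probe sets of CASP2 had changes of -0.66 (SE 0.56) on 226036_x_at and 0.93 (SE 0.59) on the dim 209811_at, and the mean over its probe sets gave -0.04 (limma, adjusted p = 0.875). Among 7 inhibitors of apoptosis and their antagonists, DIABLO alone passed. It encodes a mitochondrial protein that frees caspases from these inhibitors. DIABLO read 12.41, 12.30 and 12.45 with CsA, against 12.15, 12.15 and 12.09 in the control, and rose by 0.26 (SE 0.08, limma, adjusted p = 0.0473). That call did not hold in 10 of those 12 fits.

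Among 10 death receptor genes and adaptors, 3 passed at 48 h, all higher with CsA, where 6.20% of all genes were called higher, with a list median of 0.27. TNFRSF1A, the TNF receptor that signals death, read 11.33, 11.24 and 11.38 with CsA, against 10.72, 10.69 and 11.11 in the control. TNFRSF10D, a decoy receptor for TRAIL that cannot signal death, read 10.77, 10.69 and 10.78 with CsA, against 10.16, 10.35 and 10.11 in the control. Both pairs of groups were apart, and the changes were 0.48 (SE 0.11, limma, adjusted p = 0.0173) and 0.54 (SE 0.13, limma, adjusted p = 0.0210). The second probe set of TNFRSF10D, 210654_at, had a change of 0.37 (SE 0.46), and the mean of both gave 0.45 (limma, adjusted p = 0.262). FADD, the adaptor that recruits caspase-8, rose by 0.32 (SE 0.09, limma, adjusted p = 0.0333). With 1 array omitted, TNFRSF1A and TNFRSF10D each missed the threshold in 3 of 12 fits and FADD in 6.

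**Figure D5:**
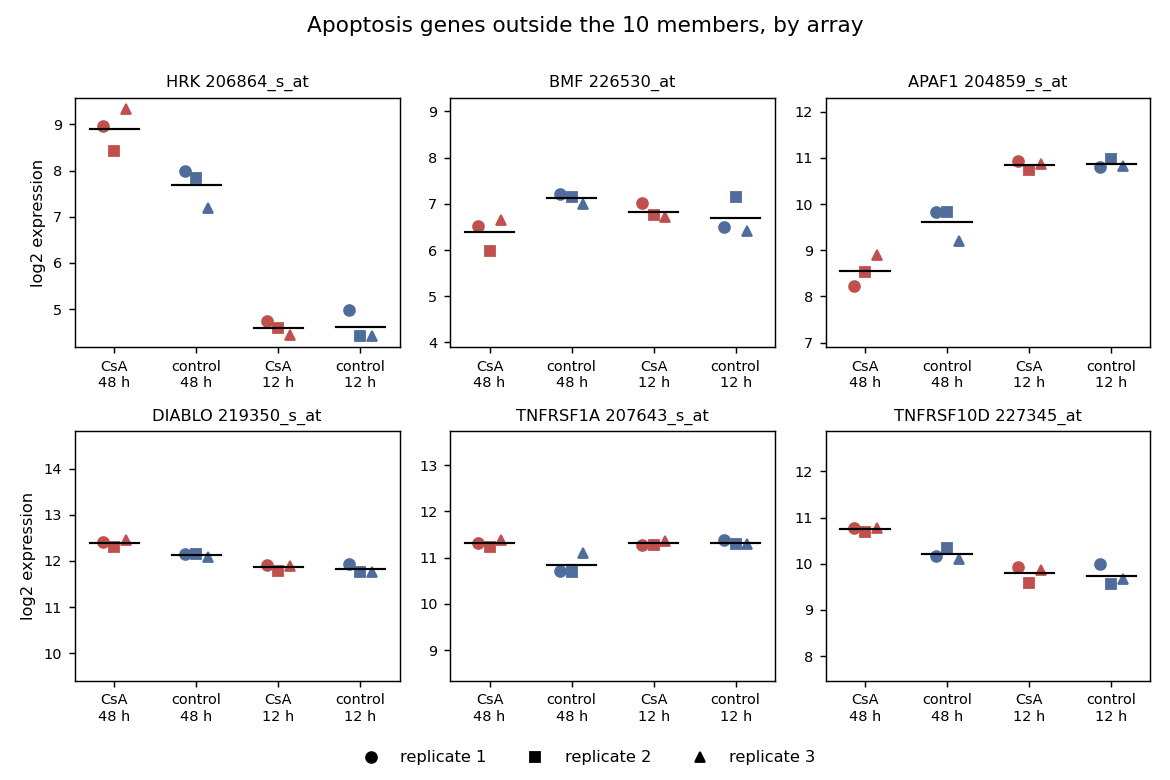
Log2 expression (vertical axis, the same span in each panel) on the 12 arrays for HRK, BMF, APAF1, DIABLO, TNFRSF1A and TNFRSF10D, with CsA in red, control in blue, symbols for replicates and a line at each mean. In each panel the 3 CsA arrays at 48 h do not overlap the 3 controls at 48 h, as for 29.7% of all genes. The genes shown were chosen from those that passed the CsA test at 48 h on these arrays, so this separation is no separate support. The 48 h and 12 h controls do not overlap in any panel except that of BMF, as for 60.2% of all genes.

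Of 12 genes that regulate transcription of the members, 3 passed at 48 h. RELA, a subunit of NF-κB, which drives BCL2L1, rose by 0.46 (SE 0.12, limma, adjusted p = 0.0324), and its second probe set rose by 0.51. NFKB1, the other subunit of the classical dimer, fell by 0.56 (SE 0.16, limma, adjusted p = 0.0362). STAT3, also an activator of BCL2L1 and MCL1, fell by 0.47 (SE 0.12, limma, adjusted p = 0.0227), while its probe set 225289_at had a change of 0.08 (SE 0.39) and the mean over its probe sets gave -0.22 (limma, adjusted p = 0.491). Leaving out 1 array took the call from NFKB1 in 9 of 12 fits and from RELA and STAT3 in 2 each. Among 16 regulators of the members' protein level or place, BCAP31, a partner of BCL2 in the endoplasmic reticulum, alone passed, with a rise of 0.32 (SE 0.07, limma, adjusted p = 0.0182). BCAP31 missed the threshold in 2 of 12 fits with 1 array omitted. None of these 13 genes passed in the 48 h arrays alone, where ATF3 was the only listed gene to do so, with a change of 0.71 (limma, adjusted p = 0.0454).

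Genes of the same lists also changed between the controls. HRK rose by 3.08 (SE 0.26, limma, adjusted p = 1.12e-05), with values of 7.99, 7.85 and 7.20 in the 48 h controls, against 4.98, 4.41 and 4.42 in the 12 h controls. Its other probe sets had time changes of 3.66 on 237187_at and 3.76 on 229552_at. In the 12 h controls 237187_at read 4.00, 3.21 and 3.22, and 229552_at read 2.27, 3.11 and 2.29, near or under the floor of 4. Both passed the filter mainly through the 48 h arrays, so their rises are no separate support for that of HRK. APAF1 fell by 1.25 (SE 0.19), with values of 9.83, 9.83 and 9.21 in the 48 h controls, against 10.81, 10.98 and 10.82 in the 12 h controls. CASP2 fell by 0.70, CASP6 by 0.67, TNFRSF1A by 0.48, BCAP31 by 0.27 and FADD by 0.25. The 48 h controls enter both these time changes and the CsA changes at 48 h given above. Of the 12 regulators of transcription, 8 rose and 1 fell, against 24.6% and 20.9% of all genes. Some of them are named here after their values were seen. DDIT3 rose by 4.84 (SE 0.26) and ATF3 by 4.02 (SE 0.36). ATF4 rose by 1.33 (SE 0.10) and FOXO3, an activator of BCL2L11, by 0.49 (SE 0.11), and the gene that fell was E2F1 (log2 change -1.61, SE 0.19).

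By correlation over the 12 arrays, the 3 genes most like PMAIP1 were MINDY3 (Pearson r = 0.968), OXA1L (0.945) and IFIT3 (0.944). Those most like BCL2L11 were MIPOL1 (0.975), KLHDC8B (0.968) and ZBTB33 (0.964). These are descriptions over arrays that share time, treatment and array quality. Of the genes like BCL2L11, KLHDC8B had a CsA change at 48 h of -1.05 and MIPOL1 one of -0.46. ZBTB33 had one of -0.30, which did not pass (limma, adjusted p = 0.0819). Since these genes were chosen for following BCL2L11 over the same arrays, their changes are no separate support for its own.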

How the data were processed

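The series held 12 arrays in 4 groups of 3, grouped by the labels' treatment and duration. Deposited were log2 summaries of probe sets, which the authors produced by GCRMA according to the submitters' processing notes, with no version stated. Since GCRMA flattens dim signals at a floor, changes near it are understated. Of 54675 probe sets, 41091 had 1 gene symbol in the platform annotation, 1801 several and 11777 none, and 6 array control probe sets were left out. Probe sets above a log2 value of 4 on at least 3 arrays were kept (20625), and the one with the highest mean stood for its gene (11154 genes). 5 member probe sets, of BCL2, MCL1 and BCL2L11, did not pass. No 2 of the 66 pairs of arrays held identical values.

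All arrays entered 1 limma 3.58.1 model (R 4.3.3) with 8 residual degrees of freedom. Tests were two-sided and adjusted by Benjamini-Hochberg over all genes, or all probe sets, tested, at a threshold of 0.05. Every adjusted p comes from this tool. The fit was also run on simulated data with known changes, independent arrays and the same spread in every group. The real groups differ in spread and hold an odd array, so the simulation does not cover those features. The members, lists, motifs and tests were chosen with earlier results of these data known. The genes named are all members, the genes of 6 lists past the threshold with CsA (where none passed, up to 2 with the smallest p) and the 3 most correlated with a member, and any other was named after its values were seen. No list was tested as a set. Pairing by replicate number, as the labels give it, was checked by correlating deviations from group means. The correlations were 0.467 to 0.577 at 12 h, 0.278 to 0.325 between the controls and -0.0506 to 0.300 at 48 h. These values alone do not settle whether the replicates were paired. The closing section gives the alternatives. Promoter windows come from RefSeq tables of GRCh38.p14, a build that the platform annotation does not name.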

Additional observations from a re-analysis of the deposited data

How the results depend on the processing

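With 3 arrays a group, changes near their SE cannot be resolved. No member changed sign while past the threshold under any alternative. At 12 h, where 1 gene passed, 2 passed with no filter and with a replicate block fitted to the 12 h arrays, and 0 with the mean of probe sets, probe sets as units, median centring, quantile normalization, the 12 h arrays alone, the replicate block within each time or both 48 h replicate 1 arrays left out, and 0 to 1 when 1 array was left out. At 48 h the 1795 genes became 2981 with array weights, 123 when fitted to the 48 h arrays, 24 when fitted to them with a replicate block, 480 without both replicate 1 arrays, and 731 to 2175 with 1 array left out. Members past the threshold at 48 h, 0 in the model of all arrays, numbered 1 with a filter at 6, median centring, quantile normalization or trend and robust priors (BCL2L11) or with the mean of probe sets (BCL2L1), 2 with array weights (BCL2L11 and PMAIP1), and 0 to 3 with 1 array left out. Their 3 probe sets became 5 with array weights, 1 with the replicate block within each time or without both replicate 1 arrays, 0 in the 48 h arrays alone with or without the block, and 1 to 4 with 1 array left out. The 125 genes whose CsA effect differed between times became 49 with no filter, 44 with probe sets as units, 192 with trend and robust priors, 1199 with array weights, 370 with the replicate block, 2 without both replicate 1 arrays, and 0 to 442 with 1 array left out, with 0 members in each. Between the controls, 4185 to 5919 genes, 5 to 8 members and 9 to 17 member probe sets passed with 1 array left out. The replicate block in the control arrays alone kept all 8 members (BCL2 with an adjusted p of 0.00506, limma), and changed no member's call at 12 h. MCL1 lost its time call with the mean of probe sets (0.34, limma, adjusted p = 0.202) and without both 48 h replicate 1 arrays (0.49, adjusted p = 0.0501), BAK1 with no filter (-0.62, adjusted p = 0.0829) and without both replicate 1 arrays (-0.66, adjusted p = 0.0550), and PMAIP1 with median centring (0.43, adjusted p = 0.0554). The causes of these shifts were not tested.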
